A study of Danio rerio with 45 samples.

Results

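The comparison was that of wild-type (WT) zebrafish embryos at the 5-somite stage with WT embryos at the shield stage. It rests on all arrays titled with the genotype WT and either stage, which are 6 of the 45 arrays of the series, 3 of each stage. Each array held labelled complementary RNA (cRNA) made from the total RNA of a pool of 20 live whole embryos. The 3 arrays of a stage are thus 3 pools, and p-values measure the spread between these pools. No treatment was given, and stage is the one thing in which the labels of both groups differ, but the groups were also on different slides and scanned on different days. The full series held 3 genotypes (MZdnmt3aa-/-, dnmt3bb.2-/- and WT) at 5 stages, with 3 arrays for each: 1-2 cell, then shield and 5-somite, then 1 dpf and lastly 2 dpf (days post-fertilization). MZdnmt3aa-/- embryos lack both the maternal and the zygotic function of dnmt3aa, a de novo DNA methyltransferase gene. The label of dnmt3bb.2-/- names only the mutated gene, another de novo DNA methyltransferase, and nothing about the maternal contribution. The values were log2 signal scores, that is the log2 of the processed array signal after scaling each array by a single factor.

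At the shield stage the zebrafish embryo is gastrulating. The dorsal organizer has formed at the margin, Nodal signals induce mesoderm and endoderm there, a BMP gradient sets the ventral side, and maternal RNAs are being cleared while the first zygotic regulators are active. At the 5-somite stage gastrulation is over, somites bud off in sequence under the segmentation clock, the neural plate has been divided into forebrain, midbrain, hindbrain and spinal cord territories, and Hox genes mark positions along the trunk. The first muscle, blood, notochord and hatching gland cells express the genes of their fate.

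Most of the array changed between the stages. Of 43603 probes, 16052 (36.8%) were higher and 11595 (26.6%) lower at 5-somite than at shield, and 15956 were not called (limma, Benjamini-Hochberg adjusted p of at most 0.01 over all probes). At least 4-fold changes were called for 5741 probes (13.2%) that were higher and 2911 probes (6.68%) that were lower. Without any test, the 3 arrays at 5-somite lay above the 3 arrays at shield for 43.5% of probes and below them for 31.2%. The replicates were close: over the probes measured on every array the median SD of a probe was 0.0710 at 5-somite and 0.0662 at shield on the log2 scale, so calls reached down to a log2 fold change of 0.18. The smallness of the groups, 3 arrays each, limits the precision of every value below. Because whole embryos were pooled, more cells of a type and more RNA per cell cannot be told apart in any of these changes.

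**Figure D1:**
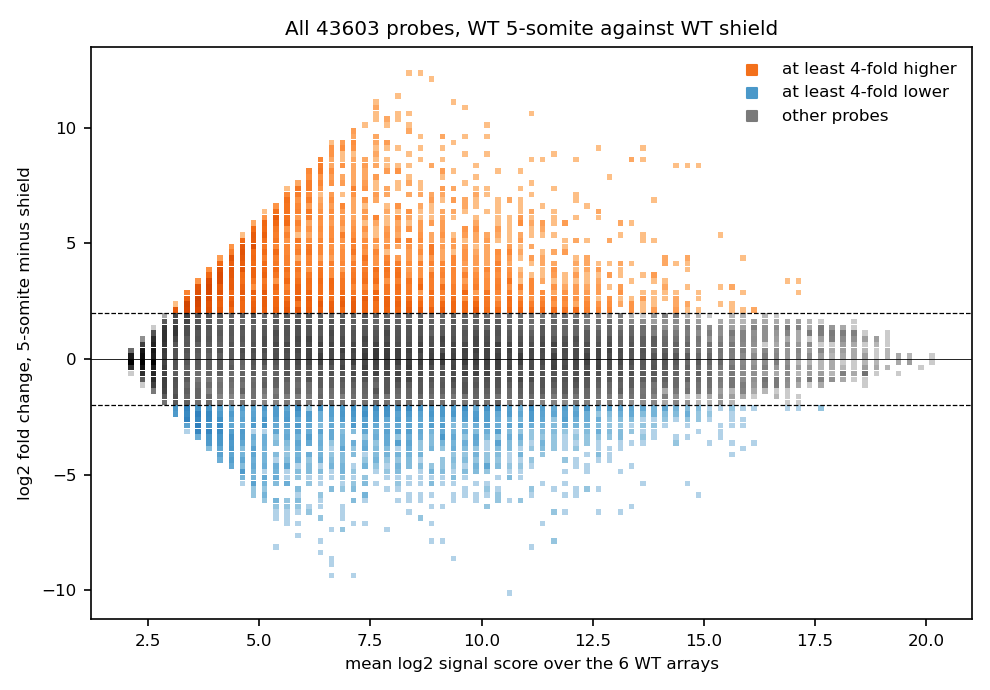
Log2 fold change (5-somite minus shield, y axis) against the mean log2 signal score over the 6 WT arrays (x axis), for 43603 probes in small squares that are darker where they hold more probes. Orange squares hold the 5741 probes at least 4-fold higher, blue squares the 2911 probes at least 4-fold lower, grey squares the rest, and dashed lines mark 4-fold. The upper edge reaches further from 0 than the lower edge, and the spread narrows towards the brightest probes.

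The balance of higher and lower calls depended on how the arrays were scaled, and the size of the changes on the background correction. Of all called probes 58.1% were higher at 5-somite with the deposited scaling, 51.2% with scaling to the 75th percentile, 45.6% after quantile normalization and 46.6% with normexp background correction and quantile normalization. Among the probes at least 4-fold changed the higher share was 66.4%, and it was 60.0%, 51.4% and 56.1% under the same alternatives. The median log2 fold change of all probes was 0.11 with the deposited scaling and moved by -0.19, -0.19 and -0.13 under the alternatives, and all changes below are to be read against this shift. Single probes moved further. Of the probes called higher, 0, 42 and 19 were called lower under the alternatives, and of those called lower 0, 0 and 0 were called higher. Of the 5741 probes that were at least 4-fold higher, 5705, 5440 and 5397 were still called higher, and of the 2911 that were at least 4-fold lower, 2911, 2911 and 2889 were still called lower. The folds themselves were smaller with normexp, which adds an offset to every probe and thereby shrinks the folds of dim probes most. With it 1462 probes were at least 4-fold higher and 1144 at least 4-fold lower. More of the array was also above background at the later stage: 75.5 ± 1.5% of probes at 5-somite and 69.7 ± 0.677% at shield (SD, n = 3 each). The 3 arrays at 5-somite ranged over 74.1 to 77.1% and the 3 at shield over 69.0 to 70.3%, without overlap, which gave p = 0.1 in the exact two-sided permutation test, the smallest p that 3 arrays against 3 allow.

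All 3 WT 5-somite arrays were on a single slide, scanned on another day than the WT shield arrays, which were on 2 other slides. Slide, scan day and stage therefore cannot be told apart within WT. In MZdnmt3aa-/- a single slide held 2 arrays of each stage. On that slide alone, 5408 (94.2%) of the 5741 probes were higher on both 5-somite arrays than on both shield arrays, against 40.6% of all probes, and 2608 (89.6%) of the 2911 probes were lower on both, against 33.0% of all probes. The median log2 fold changes of these probes were 2.99 and -2.41 on that slide, against 3.24 and -2.87 in WT.

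The labelled stages were set beside marker genes. These markers were chosen with earlier results of these data known, so they are no independent check of the labels. All 6 genes taken as markers of the shield stage were lower at 5-somite: gsc (log2 fold change -3.05), a homeobox gene of the organizer, chrd (-1.11), the BMP antagonist Chordin, vox (-1.71), a ventral repressor, and ndr1, mixl1 and sox32, which are described with the Nodal genes. Of the 8 genes taken as markers of early segmentation, 7 were higher, and the exception was her7, a gene of the segmentation clock. It scored 11.78, 11.78 and 11.66 at 5-somite against 12.69, 12.50 and 12.43 at shield (log2 fold change -0.79 ± 0.09 SE). Of the 7 markers on the array that were taken for cells that differentiate later, mpx of neutrophils, myl7 of heart muscle and ins of the endocrine pancreas were not well above background on any of the 6 arrays, and myh7 was on 1 shield array only. The brightest probe of the neuronal gene elavl4 was above background on all 5-somite arrays and on no shield array (at least 6.75-fold higher). Of its other probes 1 was called higher and 1 was not called. The exocrine pancreas gene prss1 was detected at both stages and was higher at 5-somite by 0.52. The red cell anion exchanger gene slc4a1a was detected at both stages with a log2 fold change of 0.24, which was not called (limma, adjusted p = 0.033) and was called lower under quantile normalization (-0.54) and normexp (-0.13), while its other probe was called higher (0.58).

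Some genes went from background to signal or back. A probe is called switched on where it was called higher, was well above background on 3 of 3 arrays at 5-somite and on 0 of 3 at shield, and switched off in the reverse case. There were 2835 switched on probes (6.5%) and 981 switched off probes (2.25%). For such probes the dimmer stage has only an upper bound, and the fold is given as "at least": the mean of the brighter stage over the mean, per array of the dimmer stage, of the higher of that array's lowest signal well above background and the probe's own signal. With bounds used in this way 1460 of the 2835 and 386 of the 981 changed at least 4-fold, and so did 4459 of the 5741 and 2312 of the 2911 probes counted above. Another 684 called probes were not well above background on any of the 6 arrays, and their folds are not interpreted.

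Genes were ranked only if they were called, well above background on every array of the brighter stage, and without overlap between the stages. Among these, the 15 genes with a proper symbol and the highest fitted fold changes included 4 Hox genes, both hatching enzyme genes and the muscle myosin genes myl10 and smyhc1. They scored between 12.04 and 16.41 on the log2 scale at 5-somite, and 13 of them were not well above background on any shield array. Fitted folds against background have no measured order, so a gene outside the 15 need not have risen less than a gene among them. Apolipoprotein gene apoa4b.1 scored 14.49, 14.69 and 14.99 at 5-somite and 2.23, 2.2 and 2.30 at shield, which is at least 1296-fold higher. The nuclear receptor gene nr2f5, of the COUP-TF family, scored 15.08, 15.04 and 14.99 against 4.09, 4.16 and 4.04 (at least 1613-fold). For both genes the arrays of a stage lay close together and far from the other stage. The hatching enzyme genes he1.2 and he1.1 code for the proteases that later dissolve the egg envelope. The he1.2 probe scored 14.93, 14.93 and 15.06 at 5-somite against 2.22, 2.45 and 4.21 at shield (at least 1543-fold), and the he1.1 probe 12.88, 12.91 and 13.32 against 2.11, 2.02 and 2.05 (at least 403-fold).

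The retinoic acid binding protein gene crabp2a scored 13.79, 13.80 and 13.73 at 5-somite against 2.46, 2.34 and 2.43 at shield (at least 671-fold). The neural factor gene sox1b reached 12.98, 12.96 and 12.93 against 2.79, 2.61 and 2.67 (at least 382-fold). Of the 15, only the myosin light chain gene myl10 was measured on all 6 arrays, with 16.33, 16.41 and 16.29 at 5-somite and 5.77, 5.68 and 5.94 at shield. Its log2 fold change was 10.55 ± 0.08 SE. Slow myosin heavy chain gene smyhc1 scored 12.08, 12.06 and 12.04 against 2.53, 2.1 and 2.1 (at least 205-fold). The remaining genes were the methionine adenosyltransferase gene mat1a (at least 514-fold), the follistatin-like gene fstl1a (at least 486-fold), the exportin gene xpo7 (at least 375-fold) and the Hox genes hoxb10a (at least 634-fold), hoxb7a (at least 473-fold), hoxa9a (at least 381-fold) and hoxc8a. The hoxc8a probe was above background on 1 of 3 shield arrays, with 13.47, 13.55 and 13.41 at 5-somite against 2.22, 2.12 and 5.70 at shield. Adjusted p-values of the 15 genes were between 5.36e-08 and 2.7e-04 (limma), and low values follow from the choice of genes. All other probes of these genes were called higher as well, but the other xpo7 probe by only 1.24.

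The 15 genes with the lowest fitted fold changes included the early regulators dharma, sox32, ndr1 and nanog and a pair of globin genes. At 5-somite 6 of the 15 were not well above background on any array, and their order is likewise not a measured one. The organizer homeobox gene dharma, which acts at the very top of dorsal axis formation, scored 2.02, 2.42 and 2.18 at 5-somite and 11.01, 10.90 and 10.92 at shield, which is at least 98.7-fold lower. The endoderm factor gene sox32 scored 7.26, 8.02 and 8.08 at 5-somite and 15.64, 15.70 and 15.68 at shield (log2 fold change -7.89 ± 0.23 SE). The Nodal ligand gene ndr1 scored 4.68, 3.58 and 4.48 against 11.74, 11.70 and 11.62 (-7.44 ± 0.30 SE), and was above background on 2 of 3 arrays at 5-somite. In each of these genes the stages were far apart and the shield arrays lay close together. The genome activator gene nanog scored 9.18, 9.37 and 9.44 at 5-somite and 15.99, 16.01 and 15.96 at shield (-6.66 ± 0.08 SE). The linker histone gene h1m, of oocytes and early embryos, scored 8.15, 8.61 and 8.35 against 14.97, 14.92 and 14.93 (-6.57 ± 0.12 SE).

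The beta globin genes ba1l and hbba1 were among the 15 as well. The ba1l probe scored 5.33, 4.97 and 5.52 at 5-somite and 13.20, 13.21 and 13.26 at shield, and the hbba1 probe 5.70, 5.02 and 5.20 against 12.28, 12.47 and 12.54. Both were bright on all 3 shield arrays and dim, though well above background, on all 3 arrays at 5-somite. Their log2 fold changes were -7.95 ± 0.15 and -7.13 ± 0.19 (SE). The other 8 genes were arl13a (-6.92), an Arf-like GTPase gene, nnr (-6.38), the chemokine receptor gene cxcr3.1 (-6.48, above background on 1 array at 5-somite), the general transcription factor gene gtf2f2b (at least 61.7-fold lower), the hormone receptor gene ghrhra (at least 31.2-fold), vstm2lb (at least 27.1-fold), the meiotic recombination gene spo11 (at least 24.8-fold) and sid1 (at least 22.6-fold). Adjusted p-values of the 15 genes were between 1.78e-07 and 3.77e-04 (limma), again low through the choice of genes. Every other probe of these genes was called lower too.

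**Figure D2:**
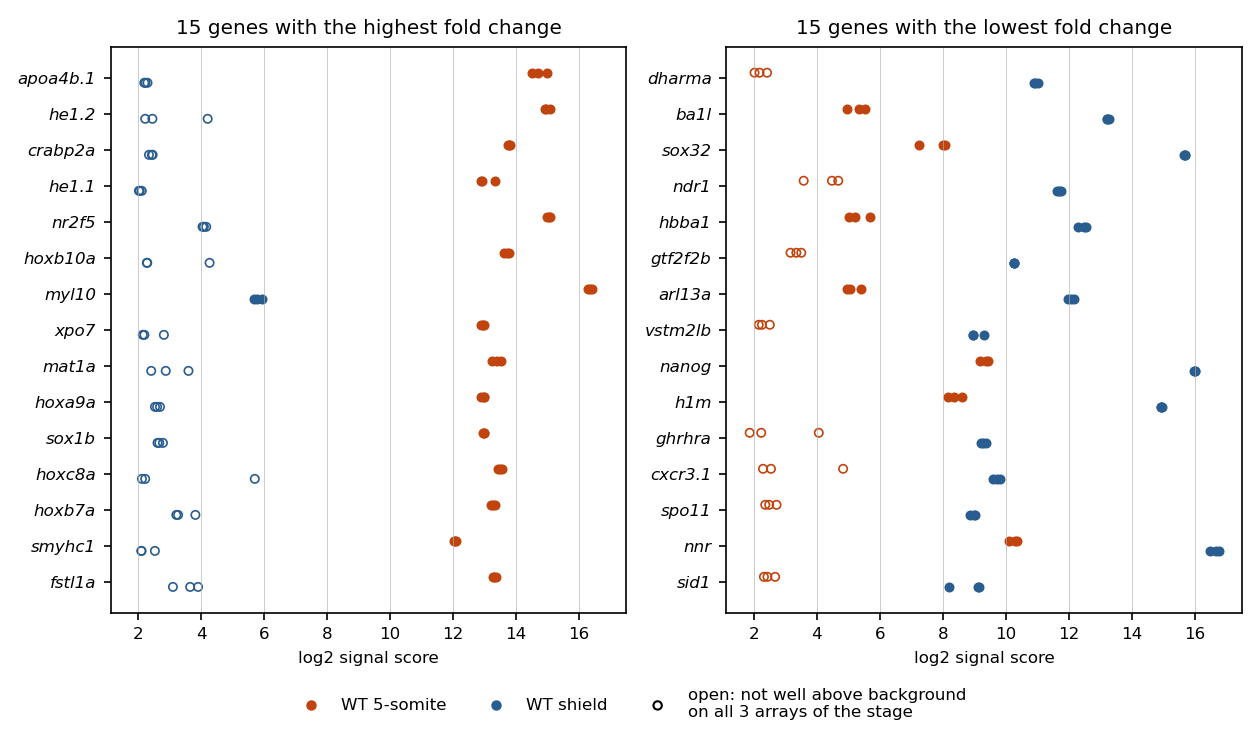
Log2 signal score (x axis) of each WT array in rows of genes, the 15 with the highest fitted fold changes on the left and the 15 with the lowest on the right, with 5-somite arrays in red above shield arrays in blue. Open points mark a stage whose 3 arrays were not all well above background. Only genes whose stages were separate could be shown, and most genes on the left have open points at shield.

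Over all genes with a symbol, taking the brightest probe of each (14109 genes), 43.0% were higher and 28.9% lower at 5-somite, 14.7% were at least 4-fold higher and 7.05% at least 4-fold lower, and the median log2 fold change was 0.22. By the same rule 5.87% of genes were switched on and 1.89% switched off. The 20 gene lists below, which hold 633 genes on the array, are described against these shares. In the lists as a whole 363 genes were higher, 181 lower and 89 not called, 102 were switched on and 7 switched off, and the median was 0.98. The lists were drawn up with textbook knowledge of both stages and with earlier results of these data known. A higher share in them is therefore a description and no test. The sizes of the list medians depended on the background correction: with normexp the 20 medians lay between -2.21 and 2.31, and with the deposited values between -2.95 and 6.68.

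**Figure D3:**
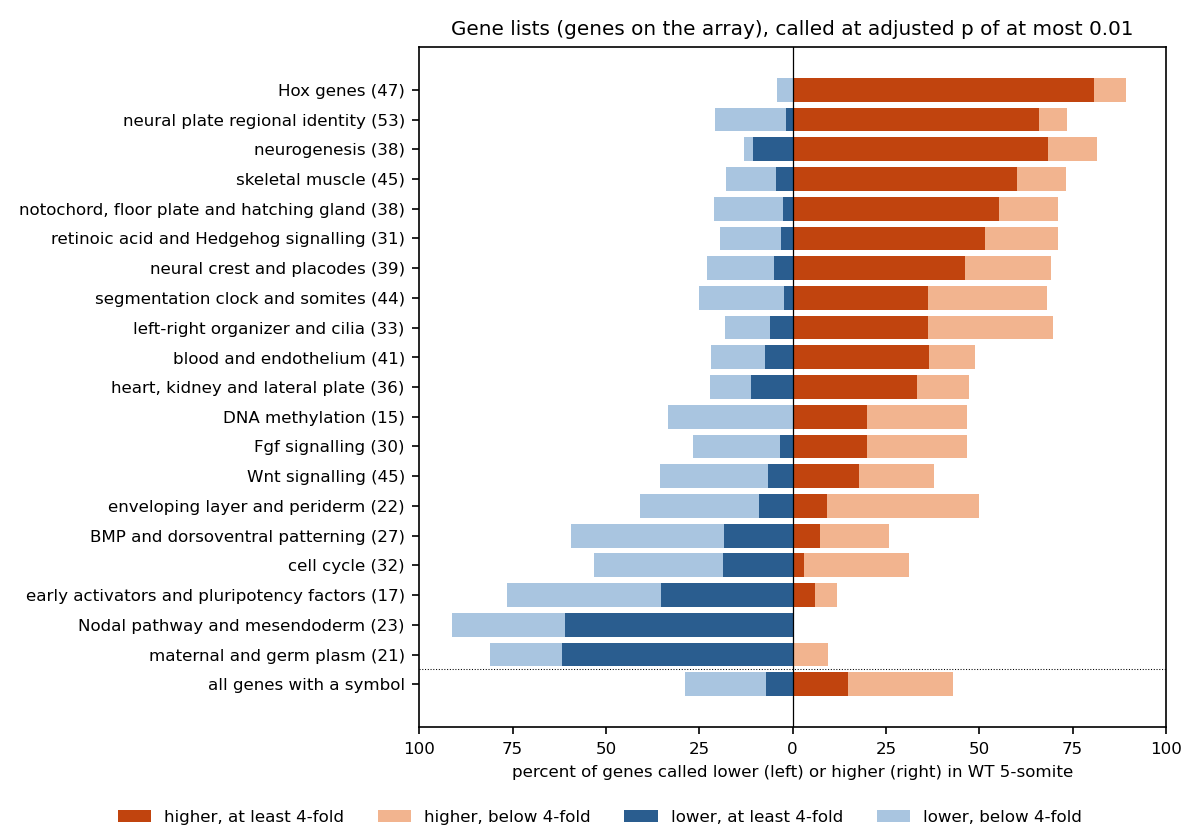
Percent of the genes of each list on the array (number in brackets, rows) that were higher at 5-somite (bars to the right, red) or lower (bars to the left, blue), with the dark part at least 4-fold changed. The bottom row holds the 14109 genes with a symbol. The Hox list has the longest bar to the right, and the Nodal, maternal and early activator lists have the longest bars to the left.

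Early activators and pluripotency factors were mostly lower at 5-somite, 13 of 17 genes, with 2 higher and 2 not called (median -1.18). After nanog, the largest decreases were those of pou5f3 and mxtx2. The pou5f3 probe, for the zebrafish counterpart of the Oct4 family that opens the genome together with Nanog and Sox19b, scored 11.94, 12.01 and 11.97 at 5-somite against 17.92, 17.86 and 17.89 at shield (-5.92 ± 0.05 SE). The mxtx2 probe, for a factor that specifies the yolk syncytial layer, scored 5.80, 5.87 and 5.69 against 11.70, 11.62 and 11.51 (-5.82 ± 0.08 SE). Both stood clearly above background at the later stage. The proto-oncogene myca ran the other way, with 11.11, 11.06 and 10.95 at 5-somite and 4.72, 4.66 and 4.69 at shield (6.35 ± 0.06 SE, with 2 shield arrays above background), though its other probe was not called (3.48). The sox19b probe was higher by 0.52, and of its other probes 1 was called higher (0.86) and 1 lower (-0.66).

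Of the maternal and germ plasm list 17 of 21 genes were lower and 13 of them at least 4-fold (median -2.95), with 2 higher and 2 not called. Besides h1m, the germ cell helicase gene ddx4, known as vasa, scored 6.84, 6.64 and 6.77 at 5-somite and 11.40, 11.47 and 11.44 at shield (-4.69 ± 0.07 SE). The embryonic poly(A) binding protein gene pabpc1l scored 8.46, 8.31 and 8.60 against 13.17, 13.09 and 12.94 (-4.61 ± 0.10 SE). Both remained detectable on the 3 arrays at 5-somite. The higher genes were the RNA binding protein genes celf1 (0.88) and ybx1 (0.36), and the call of ybx1 was lost under all 3 scaling alternatives. The cell cycle list had 17 lower, 10 higher and 5 not called of 32 genes (median -0.40), and its lowest members were ccna1, wee2 and ccne1. The cyclin gene ccna1 scored 7.73, 8.13 and 7.99 against 14.08, 14.03 and 13.92 (-6.06 ± 0.11 SE), and the oocyte Wee1 kinase gene wee2 7.12, 7.19 and 6.92 against 13.02, 12.81 and 12.82 (-5.81 ± 0.10 SE). The cyclin E gene ccne1 had a log2 fold change of -3.30. The replication licensing gene mcm2 (1.34), the checkpoint kinase gene chek1 (1.32) and the D-type cyclin gene ccnd2a (2.85) were higher.

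Of the 23 Nodal and mesendoderm genes on the array none was called higher and 21 were lower, 14 of them at least 4-fold (median -2.56). The exceptions were smad2, the signal transducer, at 0.25 (limma, adjusted p = 0.066), and foxa2, an endoderm and floor plate factor, at 0.18 (adjusted p = 0.011). Of the other smad2 probes 1 was called lower (-1.21) and 1 was not called. Under 7 of the alternative settings foxa2 passed the threshold. The homeobox gene mixl1, a direct Nodal target, scored 8.93, 8.79 and 9.23 at 5-somite and 14.96, 14.66 and 14.69 at shield (-5.79 ± 0.14 SE). The feedback inhibitor gene lft2 scored 8.97, 9.27 and 8.63 against 13.07, 12.92 and 12.99 (-4.04 ± 0.17 SE). A pair of mesoderm T-box genes was lower but well above background at both stages: tbx16 scored 13.85, 13.79 and 13.91 at 5-somite against 16.59, 16.73 and 16.67 at shield (-2.82 ± 0.06 SE), and tbxta, the Brachyury gene of notochord and tailbud, 11.70, 11.75 and 11.69 against 14.36, 14.25 and 14.21 (-2.56 ± 0.06 SE). The endoderm factor gene gata5 had the smallest called decrease of the list (-0.69), and that call was lost when any of 4 arrays was left out (adjusted p of 0.0154 to 0.0171 by limma).

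In the BMP and dorsoventral list 16 of 27 genes were lower, 7 higher and 4 not called (median -1.10). The organizer signal gene admp scored 11.55, 11.61 and 11.38 at 5-somite against 14.64, 14.61 and 14.69 at shield (-3.13 ± 0.07 SE), and the ventral ligand gene bmp7a 7.67, 7.45 and 7.91 against 10.18, 10.27 and 10.11 (-2.51 ± 0.13 SE). The follistatin gene fsta, whose product binds activins and BMPs, ran the other way with 13.39, 13.44 and 13.31 against 6.22, 6.33 and 6.0 (7.20 ± 0.10 SE). The epidermal master regulator gene tp63 scored 13.42, 13.44 and 13.52 against 8.39, 8.52 and 9.06 (4.80 ± 0.18 SE). The BMP target gene id3 was higher by 0.99. Genes of the enveloping layer, the outer epithelium that already covers the shield embryo, went both ways, with 11 higher, 9 lower and 2 not called of 22 (median 0.24, close to that of all genes). The number higher was 7 when all 15 WT arrays were fitted together. The annexin gene anxa2a scored 13.68, 13.57 and 13.76 at 5-somite and 6.25, 6.27 and 6.25 at shield (7.41 ± 0.06 SE), anxa1c was higher by 2.62 and the keratin gene krt17 by 1.97. The claudin gene cldne (-2.38) and the transcription factor gene grhl1 (-1.24) were lower, and 1 of the other 4 cldne probes was not called.

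Most somite genes on the array were higher. In the segmentation list 30 of 44 genes were higher, 16 at least 4-fold (15 with bounds), 11 lower and 3 not called (median 1.17). The somite homeobox gene meox1 scored 15.02, 15.06 and 14.84 at 5-somite and 5.83, 5.28 and 4.58 at shield (9.74 ± 0.32 SE, with 2 shield arrays above background). The Hairy-related gene her2 scored 14.43, 14.48 and 14.32 against 6.40, 5.93 and 6.56 (8.11 ± 0.17 SE), and fn1b, a fibronectin gene of somite boundaries, 15.57, 15.63 and 15.56 against 8.45, 8.38 and 8.43 (7.17 ± 0.05 SE). In each of the 3 genes the stages did not overlap. The T-box gene tbx6 of the presomitic mesoderm was higher by 5.90 and the somite polarity gene mespba by 2.7. Lower genes were tbx16, the fibronectin receptor gene itga5 (-1.94) and mespaa (-1.64), a relative of mespba.

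Of 45 skeletal muscle genes 33 were higher, 27 at least 4-fold (24 with bounds), and 8 lower (median 2.78). The fate regulators myod1 and myog both rose: myod1 scored 12.29, 12.25 and 12.11 at 5-somite and 4.78, 4.30 and 5.03 at shield (7.51 ± 0.20 SE, with 2 shield arrays above background), and myog 10.24, 10.22 and 10.17 against 2.83, 2.65 and 2.71, at least 56.7-fold higher. The homeobox gene six1b, of muscle precursors and placodes, scored 12.62, 12.69 and 12.62 against 2.32, 4.08 and 3.06 (at least 307-fold). Against these, the muscle creatine kinase gene ckma scored 5.03, 5.34 and 5.49 at 5-somite and 9.57, 9.62 and 9.61 at shield (-4.32 ± 0.13 SE), but its other probe was not called (-0.57). The calcium store genes ryr1b (at least 2.39-fold lower) and casq1b (at least 2.32-fold lower) were also called lower on the brightest probe. Their other probes did not follow: 1 of casq1b was not called, and of 6 for ryr1b 1 was called higher and 5 were not called.

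Of 53 genes of neural plate regions 39 were higher, 35 at least 4-fold (33 with bounds), 11 lower and 3 not called (median 3.82). The hindbrain segment gene egr2b, also known as krox20, scored 13.93, 14.01 and 13.85 at 5-somite and 4.08, 4.06 and 4.57 at shield, where 1 array was above background, so the fitted log2 fold change of 9.69 is set in part by background. The eye and forebrain gene pax6a scored 12.65, 12.73 and 12.60 against 3.84, 2.51 and 3.62 (at least 310-fold), and the midbrain-hindbrain boundary gene pax2a 12.88, 12.91 and 12.81 against 6.75, 7.01 and 7.15 (5.90 ± 0.11 SE). Retinal field gene rx3 went up at least 13.6-fold. The lowest members were the homeobox genes lhx5 (-2.48) and hesx1 (-1.54) and the zinc finger gene zic2b (-1.23). The hesx1 call was lost when all 15 WT arrays were fitted together (limma, adjusted p = 0.058).

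Of 38 neurogenesis genes 31 were higher, 26 at least 4-fold (24 with bounds), and 5 lower (median 3.86, or 2.82 with bounds). The Notch target gene her4.1 scored 12.50, 12.48 and 12.34 at 5-somite and 2.81, 3.00 and 3.91 at shield (at least 267-fold higher). The proneural genes neurod4 (11.69, 11.71 and 11.64 against 2.47, 4.04 and 2.74, at least 157-fold) and neurod1 (10.73, 10.70 and 10.65 against 2.14, 2.06 and 2.29, at least 79.6-fold) rose too. None of the 3 was above background at shield. The neuronal RNA binding protein gene elavl4 was detected at 5-somite only on its brightest probe (at least 6.75-fold higher), and 1 of its other probes was not called. The lowest members were the axonal adhesion gene cntn2 (-3.50), the stathmin gene stmn2a (-3.27) and onecut1 (-2.32). The stmn2a and onecut1 decreases were shared by their other probes, and the other 2 cntn2 probes were not called. In the neural crest and placode list 27 of 39 genes were higher, 18 at least 4-fold (17 with bounds), and 9 lower (median 1.88). The lens gene pitx3 scored 11.14, 11.19 and 11.08 against 2.79, 3.82 and 3.89 (at least 108-fold), and the border gene pax3a 9.54, 9.63 and 9.46 against 2.18, 2.04 and 2.55 (at least 35.8-fold). The chemokine receptor gene cxcr4b (-3.01) and the Snail genes snai1a (-2.28, on 2 shield arrays) and snai2 (-1.49) were lower.

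The Hox list had the highest median of the 20 lists. Of 47 on the array 42 were higher, 38 at least 4-fold (36 with bounds), 28 were switched on, and 2 were lower (median 6.68, or 5.45 with bounds, against 0.22 for all genes). With normexp the median was 2.31, with 41 higher and 2 lower. The counts ran unevenly along the clusters. All 14 genes of paralog groups 1 to 4, which pattern the hindbrain, were at least 4-fold higher (13 with bounds), as were 10 of 12 of groups 5 to 8 and 8 of 8 of groups 9 and 10. Of the 13 genes of groups 11 to 13, which act in the tail, 9 were higher, 6 of them at least 4-fold (5 with bounds), and the median was 1.81. Detected at 5-somite only were 7 of these 13 and 7 of the 14 of groups 1 to 4. The lower calls were hoxc6a (-0.76) and hoxb13a (-0.77). The other hoxc6a probe rose by 6.58, and both other hoxb13a probes were not called. The smallest rise among called genes of groups 5 to 8 was that of hoxb8a, with 9.74, 9.71 and 9.63 at 5-somite and 8.29, 8.48 and 8.65 at shield (1.22 ± 0.10 SE), while its other 3 probes rose by 4.26 to 9.20.

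**Figure D4:**
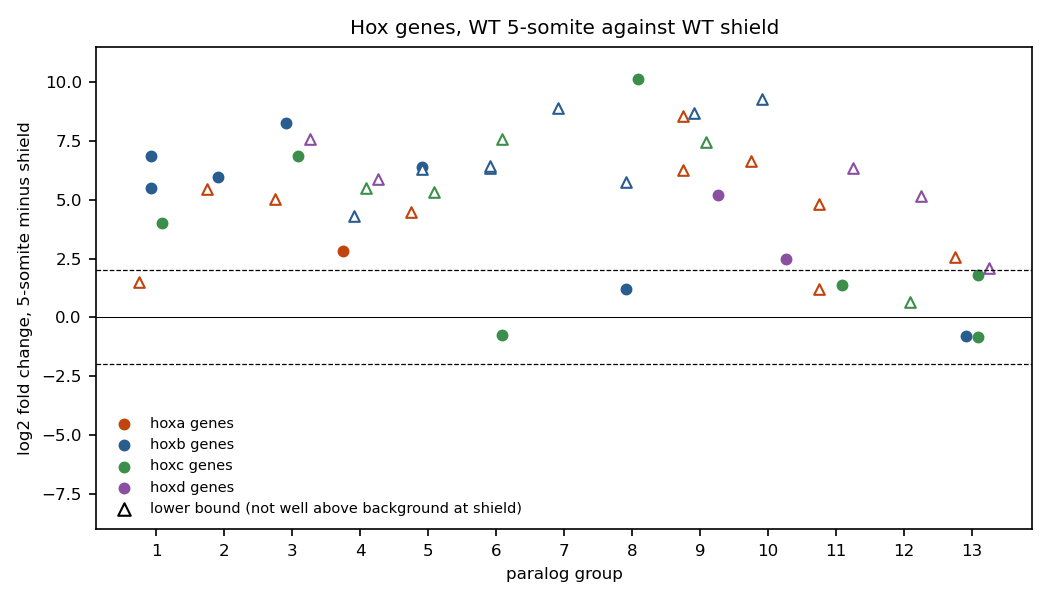
Log2 fold change (5-somite minus shield, y axis) of each Hox gene by paralog group (x axis), coloured by cluster. Triangles are lower bounds for genes not well above background at shield, dashed lines mark 4-fold, and hoxa13a and hoxc12a, below background at both stages, are left out. Groups 1 to 10 lie above the upper dashed line except for 3 genes, and groups 11 to 13 spread around it.

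Among genes of blood and endothelium 20 of 41 were higher, 15 at least 4-fold (14 with bounds), 9 lower and 12 not called (median 0.84). The share higher, 48.8%, was near the 43.0% of all genes, while 36.6% were at least 4-fold higher, against 14.7%. With normexp 18 were higher and 13 lower with a median of 0.07. The hemangioblast gene lmo2 scored 11.96, 11.88 and 12.06 at 5-somite and 4.06, 4.36 and 4.38 at shield (at least 191-fold higher), the erythroid master gene gata1a 9.95, 10.12 and 10.05 against 2.19, 2.09 and 3.15 (at least 50.4-fold) and the repressor gene gfi1aa 10.36, 10.44 and 10.37 against 3.12, 2.09 and 2.14 (at least 64.4-fold). All 3 were switched on. The lower ones were drll.2 (-3.98), the membrane skeleton gene epb41b (-4.55) and gata2b (at least 2.72-fold lower), and both probes of each were called lower. At 5-somite epb41b was above background on 2 arrays, and the gata2b call was lost with a floor of 32 (limma, adjusted p = 0.165). In the heart, kidney and lateral plate list 17 of 36 genes were higher, 12 at least 4-fold (11 with bounds), 8 lower and 11 not called (median 1.00, or 0.16 with normexp). The share higher, 47.2%, was again near that of all genes, while 33.3% were at least 4-fold higher, against 14.7%. The heart field gene hand2 scored 10.95, 10.99 and 11.03 against 2.38, 4.84 and 2.30, and nkx2.7 13.15, 13.26 and 13.28 against 6.68, 6.61 and 6.73 (6.56 ± 0.06 SE). The hand2 probe was above background on 1 shield array, and its fitted log2 fold change of 7.82 is set in part by background. The endoderm and heart genes gata6 (-2.16) and hnf4a (-2.53) were lower.

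Of 38 genes of notochord, floor plate and hatching gland 27 were higher, 21 at least 4-fold, and 8 lower (median 2.43). Besides the hatching enzymes, the sheath collagen gene col9a1b scored 12.32, 12.34 and 12.35 at 5-somite and 4.98, 3.77 and 5.06 at shield, where 1 array was above background (fitted log2 fold change 7.73). The lowest members were tbxta, the forkhead gene foxa3 (-1.90) and the notochord homeobox gene noto (-1.54). The list of the left-right organizer and cilia had 23 higher, 12 at least 4-fold (9 with bounds), and 6 lower of 33 genes (median 0.93). The Nodal antagonist gene dand5, which acts in Kupffer's vesicle, scored 8.71, 8.66 and 8.56 against 2.15, 2.07 and 2.09 (at least 19.2-fold higher). The axoneme gene spag6 rose at least 45.7-fold and rsph9 at least 3.68-fold. The dynein docking gene odad3 was lower on its brightest probe (-2.33) and higher on the other (5.89), so its direction is not settled. Assembly factor gene dnaaf11 was lower (-1.80).

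Of the Wnt genes 17 of 45 were higher (37.8%, against 43.0% of all genes), 16 lower and 12 not called (median 0.02). After quantile normalization 12 were higher and 19 lower, the median was -0.20, and lrp5, a co-receptor gene, changed its direction. Single members changed strongly. The ligand gene wnt11 scored 12.80, 12.78 and 12.62 at 5-somite and 5.65, 5.24 and 5.07 at shield (7.42 ± 0.16 SE), while wnt11f2, the ligand of convergent extension at gastrulation, scored 10.70, 10.70 and 10.64 against 13.32, 13.31 and 13.15 (-2.58 ± 0.06 SE). The paralogs thus differed in direction, on both probes of each. The ligand genes wnt3 (at least 36.0-fold) and wnt4 (at least 36.3-fold) were switched on, and the feedback inhibitor gene notum1a (-2.50) and the target gene sp5l (-2.13) were lower. Of 30 Fgf genes 14 were higher, 8 lower and 8 not called (median 0.24). The share higher, 46.7%, was near the 43.0% of all genes. The receptor genes fgfr3 (6.32) and fgfr2 (2.88) and the ligand gene fgf10a (at least 11.1-fold) rose, and the ligand genes fgf24 (-1.52) and fgf19 (at least 3.21-fold lower) were lower, the last without its call when any of 4 arrays was left out (adjusted p of 0.0130 to 0.0155 by limma). The fgfr1a probe was lower (-1.21), and of its other probes 1 was higher (1.81) and 1 not, so its direction is not settled.

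Of 31 genes of retinoic acid and Hedgehog signalling 22 were higher, 16 at least 4-fold (14 with bounds), and 6 lower (median 2.2, or 1.48 with bounds). The retinaldehyde reductase gene dhrs3a scored 10.55, 10.60 and 10.56 at 5-somite and 2.22, 2.15 and 2.18 at shield (at least 72.8-fold higher), and the degrading enzyme gene cyp26c1 13.91, 13.89 and 13.73 against 6.20, 5.83 and 5.92 (7.86 ± 0.12 SE). The lowest members were rdh10b, aldh1a2 and rdh10a, named because they were lowest. The retinaldehyde dehydrogenase gene aldh1a2 of the trunk mesoderm scored 12.93, 12.88 and 12.85 against 14.34, 14.45 and 14.36 (-1.50 ± 0.05 SE), and the retinol dehydrogenase genes rdh10b and rdh10a fell by 2.61 and 1.12 on the log2 scale.

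The DNA methylation genes, which include those mutated in the other genotypes, had 7 of 15 higher, 5 lower and 3 not called (median 0.37). These shares, 46.7% higher and 33.3% lower, were near the 43.0% and 28.9% of all genes. The de novo methyltransferase gene dnmt3ab scored 10.42, 10.25 and 10.16 at 5-somite and 6.09, 6.23 and 6.15 at shield (4.12 ± 0.08 SE). Its paralog dnmt3aa scored 7.84, 7.71 and 7.95 against 8.41, 8.33 and 8.43 (-0.56 ± 0.08 SE). The dnmt3aa arrays of the stages did not overlap although the change was small. Of the Dnmt3b family dnmt3ba was higher (0.71), dnmt3bb.2 scored 13.58, 13.65 and 13.65 against 14.18, 14.17 and 14.14 (-0.54 ± 0.05 SE), dnmt3bb.3 was lower (-0.26), a call that its other probe did not share and that was lost when any of 5 arrays was left out (adjusted p of 0.0115 to 0.0176 by limma), and dnmt3bb.1 was at 0.01 (limma, adjusted p = 0.92). The maintenance methyltransferase gene dnmt1 was higher by 0.59 on its brightest probe and on 3 of the other 4, and the other was not called, while its cofactor gene uhrf1 was lower (-1.26 ± 0.04 SE, on all 4 probes). The gene gadd45ab, of the demethylation-linked Gadd45 family, rose by 3.80 and the glycosylase gene tdg.1 by 0.94. The reader gene mbd2 was higher on its brightest probe only (0.88), mbd3a was lower (-0.78), and mbd3b (0.17, on 2 shield arrays) and gadd45aa (0.37) were not called.

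The other 3 WT stages show where these levels came from and went. Of the 2835 switched on probes 1953 (68.9%) were not above background on any 1-2 cell array (30.9% of all probes), while 640 (22.6%) were on 3 of 3 (64.5% of all probes). On every 1 dpf array 2590 (91.4%) were above background, against 79.6% of all probes, and on every 2 dpf array 2529 (89.2%), against 80.4% of all probes. Of the 981 switched off probes 754 (76.9%) were above background on every 1-2 cell array, against 64.5% of all probes. On every array of 1 dpf or of 2 dpf 529 (53.9%) were above background. For all probes that share was 79.6% at 1 dpf alone and 80.4% at 2 dpf alone. Detected at shield only were 81 (8.26%), being below background on all arrays of the other 4 stages. Switched on and switched off probes were chosen by their detection at the compared stages. Their distance from all probes at the other stages therefore cannot be told apart from that choice. Probes matched for detection at only the earlier or only the later compared stage were not used as a reference. Among the 2911 probes at least 4-fold lower, 738 (25.4%) had been at least 4-fold higher at shield than at 1-2 cell and 685 (23.5%) at least 4-fold lower than there. The largest part, 1488 (51.1%), was within 4-fold of its 1-2 cell level at shield. The shares of all probes with these courses, or detected at shield only, were not computed.

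Single early genes had different courses. The nanog probe averaged 17.60, 15.99, 9.33, 6.90 and 5.23 from 1-2 cell to 2 dpf, and h1m 16.90, 14.94, 8.37, 5.84 and 4.59, a decline through all stages. By contrast sox32 averaged 3.24, 15.67, 7.78, 4.64 and 4.33, and mixl1 9.31, 14.77, 8.98, 8.10 and 7.28, with the peak at shield. No stage between 1-2 cell and shield was sampled, so a peak here means the highest of the 5 stages. The organizer gene gsc averaged 7.54, 14.99, 11.93, 8.30 and 13.12, so that it was high again at 2 dpf. The globin probes began high, ba1l with 14.76, 13.22, 5.27, 5.67 and 6.46 and hbba1 with 13.71, 12.43, 5.30, 5.95 and 6.19. Creatine kinase gene ckma averaged 10.79, 9.60, 5.29, 13.24 and 15.77, lowest at 5-somite. The 15 genes with the highest fitted fold changes were all above background on every array at 1 dpf and 2 dpf. The muscle gene smyhc1 went on rising, with 2.08, 2.25, 12.06, 15.21 and 15.57, whereas egr2b peaked at 5-somite (4.86, 4.24, 13.93, 9.81 and 8.48). The hoxb7a probe was well above its own shield level at 1-2 cell, with 9.84, 3.43, 13.27, 10.88 and 10.64.

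**Figure D5:**
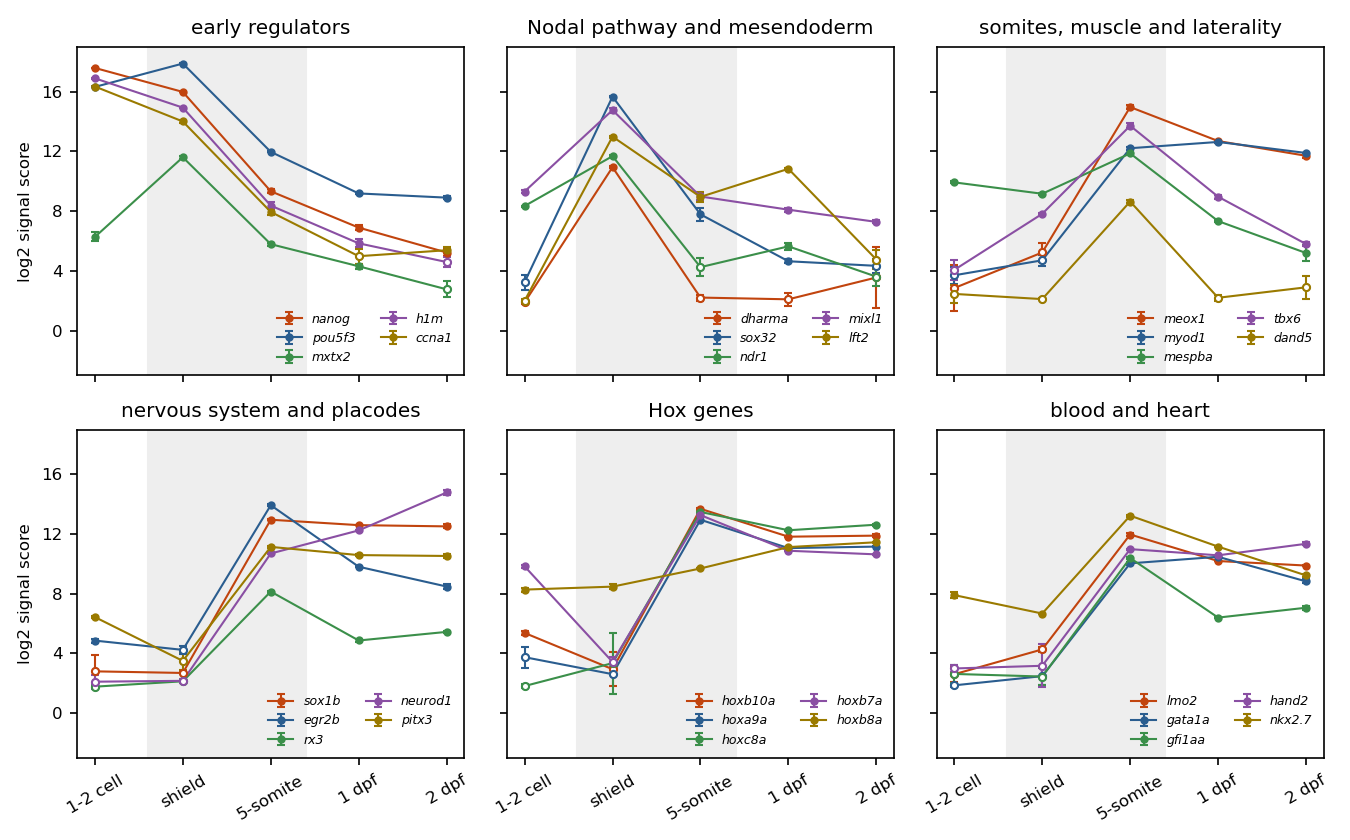
Mean log2 signal score (y axis) of 30 genes over the 5 WT stages (x axis), with bars of 1 SD over 3 arrays. Open points mark stages at which fewer than 3 arrays were well above background, and the grey band marks the compared stages. The early regulators decline or are highest at shield, the Nodal genes are highest at shield among the 5 stages, and the remaining panels climb across the band.

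The same stages in the mutants show how far the WT values carry over to other arrays. In dnmt3bb.2-/- each stage was scanned on the same day as that stage in WT, and the stages were on different slides. Slide, scan day and stage therefore cannot be told apart there either. All MZdnmt3aa-/- arrays of both stages were scanned on a single day. Of the 5741 probes at least 4-fold higher in WT, 4565 (79.5%) were called higher in MZdnmt3aa-/-, where 20.4% of all probes were, and 5037 (87.7%) in dnmt3bb.2-/-, where 33.8% were. Of the 2911 probes at least 4-fold lower in WT, 2148 (73.8%) were called lower in MZdnmt3aa-/- (14.4% of all probes) and 2479 (85.2%) in dnmt3bb.2-/- (27.3% of all probes). The median log2 fold changes of the higher probes were 2.81 in MZdnmt3aa-/- and 2.68 in dnmt3bb.2-/- against 3.24 in WT, and those of the lower probes -2.41 and -2.49 against -2.87. Since the probes were chosen for large values in WT, smaller medians elsewhere are no finding. Of the 15 genes with the highest fitted fold changes in WT, 14 were called higher in MZdnmt3aa-/- and 15 in dnmt3bb.2-/-. Of the 15 with the lowest, 12 were called lower in MZdnmt3aa-/- and 13 in dnmt3bb.2-/-.

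The exceptions were xpo7, ba1l, hbba1 and sid1 in MZdnmt3aa-/-, and ba1l and hbba1 in dnmt3bb.2-/-. The stage effect differed from that of WT (limma interaction) for these exceptions and also for genes called in the same direction as in WT. In MZdnmt3aa-/- it differed for 2 of the 15 highest (xpo7, fstl1a) and 3 of the 15 lowest genes (ba1l, hbba1, sid1). In dnmt3bb.2-/- it did for 5 of the highest (he1.1, nr2f5, xpo7, sox1b, fstl1a) and 8 of the lowest. The 8 were dharma, ba1l, hbba1, arl13a, nanog, h1m, ghrhra and nnr. The genes were chosen by their WT values, so these counts are a description. The xpo7 probe scored 12.72, 13.26 and 13.19 at shield in MZdnmt3aa-/- and 11.68, 11.30 and 11.45 in dnmt3bb.2-/-, against 2.82, 2.2 and 2.15 in WT. So the probe was bright at shield in both mutants and at background in WT. The fitted stage effect was smaller by 9.85 and 8.72 on the log2 scale (-9.85 ± 0.27 and -8.72 ± 0.26 SE). The WT shield level has only an upper bound, so the size of these differences is set in part by background. The ba1l probe at shield scored 6.29, 4.67 and 7.23 in MZdnmt3aa-/- and 5.40, 5.65 and 5.56 in dnmt3bb.2-/-, against 13.20, 13.21 and 13.26 in WT. The shield level of the ba1l probe was thus high in WT arrays and low in the arrays of both mutants. The stage effect itself was tested against that of WT over all probes. It differed for 1273 probes upwards (2.92%) and 1538 downwards (3.53%) in MZdnmt3aa-/-, and for 5271 (12.1%) and 6787 (15.6%) in dnmt3bb.2-/-. MZdnmt3aa-/- also had fewer calls of its own stage effect (20.4% higher and 14.4% lower) than dnmt3bb.2-/- (33.8% and 27.3%). The counts therefore do not rank the mutants by how far they differ from WT. Both tests use the same 6 WT arrays. Leaving out single arrays moved the counts to between 687 and 1780 upwards and between 755 and 2039 downwards in MZdnmt3aa-/-, and to between 4535 and 5129 and between 5883 and 6688 in dnmt3bb.2-/-. The mutated genes themselves were detected in their mutants: dnmt3aa scored 9.42, 9.27 and 9.33 at shield in MZdnmt3aa-/- against 8.41, 8.33 and 8.43 in WT, and dnmt3bb.2 12.15, 12.04 and 12.14 at shield in dnmt3bb.2-/- against 14.18, 14.17 and 14.14 in WT. Where these probes lie relative to the mutations was not analysed here.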

How the data were processed

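Total RNA was extracted per pool of 20 embryos, and the study's text gives RNA integrity values above 9 for the samples. Cy3-labelled cRNA was made from the total RNA and hybridised to single-colour Agilent zebrafish arrays. The authors read the array intensity values with Agilent Feature Extraction 12.0.3.1, and the deposited processed intensities are background-subtracted within each array. The deposited score table holds these intensities times a single factor per array, which was recomputed from the files: it sets the mean of an array without its lowest and highest 2% to 2500, and was 3.18 to 3.42 on the 6 arrays compared. All 45 columns of the table were matched to samples, 0 were left over, and 27 arrays were used here.

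Scores were log2-transformed. Control spots were left out, as were outlier spots, which numbered 3 to 21 per array on the 6 arrays compared. No spot was saturated. Detection is the scanner software's flag for a spot well above background. The 3 WT 5-somite and 3 WT shield arrays were compared with lmFit and eBayes of limma 3.58.1 in R 4.3.3, with Benjamini-Hochberg adjustment over all 43603 probes and a threshold of 0.01. The stage effects of each mutant and WT were compared by an interaction contrast over 12 arrays. Probes were named through their RefSeq or other accession in the gene table of assembly GRCz12tu (26421 probes) or the gene column of the supplementary tables (615 probes), 16567 remained unnamed, and the brightest of the probes stands for a gene.

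Genes named are the 15 highest and 15 lowest with a proper symbol that passed the filters of the ranking. These filters were a call, detection on every array of the brighter stage and no overlap between the stages. Also named are the 3 highest and 3 lowest measured members of each list and all DNA methylation genes and markers. The last are the 3 highest and 3 lowest interactions per mutant. The members, lists and rules were chosen with earlier results of these data known. Alternatives covered scaling, background correction, filters, a floor of 32, thresholds, outlier spots, slide and replicate blocks, a fit over all 15 WT arrays, the median over probes and each array left out. For the comparison of stage effects between genotypes only quantile normalization, a detection filter, the replicate block and each array left out were run. A reversal was counted only where the value was called before or after. The fit was tested on simulated data. Promoter sequence features were not analysed here. The values of 1 gene of the DNA methylation list are not reported here.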

Additional observations from a re-analysis of the deposited data

Results flagged for a closer look

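The effect of stage differed between the mutants and WT for 2811 probes in MZdnmt3aa-/- and 12058 probes in dnmt3bb.2-/- (limma interaction, adjusted p of at most 0.01). As said above, these counts do not rank the mutants. All values that follow are the stage effect in the mutant minus that in WT on the log2 scale, and both mutants are set against the same 6 WT arrays.

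In MZdnmt3aa-/- the difference was highest for si:ch211-132b12.1 (8.82), chrna11 (8.20), a nicotinic acetylcholine receptor subunit gene, and hbba1 (7.32), and lowest for xpo7 (-9.85), il1rapl1a (-6.06) and colec12 (-5.88). The chrna11 probe scored 8.79, 8.77 and 9.48 at 5-somite and 3.62, 2.74 and 3.96 at shield in MZdnmt3aa-/-, against 4.98, 4.96 and 4.70 at 5-somite and 7.72, 7.38 and 7.41 at shield in WT, so the order of the stages was opposite. The colec12 probe, for a scavenger receptor, scored 7.77, 8.26 and 9.22 at shield in MZdnmt3aa-/- against 2.28, 3.41 and 2.16 in WT, while the 5-somite arrays of both genotypes lay between 11.49 and 11.76. The si:ch211-132b12.1 probe was at background on all 3 WT 5-somite arrays and above it on all 3 of MZdnmt3aa-/-.

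In dnmt3bb.2-/- the difference was highest for ba1l (8.03), herc56.3 (7.71) and si:ch211-5k11.8 (7.63), and lowest for the vasopressin receptor gene avpr1ab (-8.85), xpo7 (-8.72) and il1rapl1a (-6.25). The herc56.3 probe scored 12.21, 11.85 and 12.06 at 5-somite and 9.05, 9.17 and 9.14 at shield in dnmt3bb.2-/-, against 5.37, 5.24 and 5.52 at 5-somite and 10.43, 9.90 and 10.18 at shield in WT. It was thus higher at 5-somite in the mutant and lower in WT, but of its other 2 probes 1 was called lower and 1 was not called in WT. The avpr1ab probe scored 5.31, 3.99 and 4.29 at 5-somite and 7.31, 7.12 and 6.96 at shield in dnmt3bb.2-/-, against 8.53, 8.45 and 8.71 at 5-somite and 2.36, 2.26 and 2.32 at shield in WT. The il1rapl1a probe went down in both mutants and up in WT: it scored 6.17, 5.71 and 5.77 at 5-somite and 7.0, 7.36 and 7.76 at shield in MZdnmt3aa-/-, against 10.62, 10.61 and 10.63 at 5-somite and 6.06, 6.07 and 6.02 at shield in WT. These 12 differences kept their direction and their call under the alternatives run for them. Those were quantile normalization, a detection filter, the replicate block and each array left out. Normexp, the floor, percentile scaling and the median over probes were not run for these differences. How far the differences depend on the background correction was therefore not tested. The arrays of the genotypes were on different slides apart from 1 slide that carried 1 WT and 3 dnmt3bb.2-/- shield arrays. The part of slide, scan day and clutch was not tested. Both stages of MZdnmt3aa-/- were scanned on a single day and those of WT on different days. Scan day and genotype therefore cannot be told apart in the differences of MZdnmt3aa-/-.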

How the results depend on the processing

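The numbers of probes called in WT stayed within 1.5 times of the main count under every alternative run, except that the at least 4-fold changes numbered 1462 higher and 1144 lower with normexp, whose added offset shrinks the folds of dim probes, and 10892 higher and 6750 lower when 2-fold was enough. With a floor of 32 they were 3946 and 2079. Slide as a random block gave 17226 higher and 12423 lower calls. No slide held both WT stages, so this block cannot account for slide. Leaving out each array in turn gave 14611 to 15162 higher and 10560 to 10931 lower calls, 5548 to 5767 and 2879 to 2909 at least 4-fold changes, and 2650 to 3021 switched on and 962 to 1120 switched off probes. The shared replicate numbers did not pair the samples (correlations of same-numbered arrays -0.00372 to 0.0173). With a replicate block 14095 probes were higher and 10064 lower, and the stage effect of MZdnmt3aa-/- differed from that of WT upwards for 852 and downwards for 973 probes. The last 2 counts also ranged over 687 to 1780 and 755 to 2039 with single arrays left out. They rose without MZdnmt3aa-/- shield replicate 3 (1780 and 2039) or 1 (1562 and 1880), or without MZdnmt3aa-/- 5-somite replicate 3 (1704 and 1775). They fell by over 1.5 times without replicate 1 (780 and 937) or 2 (788 and 980) of MZdnmt3aa-/- 5-somite, without WT 5-somite replicate 1 (702 and 755), 2 (687 and 794) or 3 (765 and 900), and without WT shield replicate 1 (742 and 893), 2 (702 and 836) or 3 (740 and 925). The matching counts of dnmt3bb.2-/- were 4535 to 5129 and 5883 to 6688.

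Of the 167 named genes 147 kept their call and direction throughout. Log2 fold changes with another sign were -0.000717 (quantile) and -0.00784 (normexp) for ybx1, -0.545 (quantile) and -0.135 (normexp) for slc4a1a and, as the median over all probes, 2.91 for hoxc6a, 1.78 for odad3 and 0.233 for fgfr1a. With the median over probes ckma, casq1b, ryr1b, cntn2, hoxb13a and mbd2 were no longer called. A floor of 32 removed the calls of gata2b (-0.76) and ryr1b (-0.58), and the replicate block those of hoxb13a and dnmt3bb.3. Without single arrays the calls of gata5 (without 5-somite replicate 1 or 2 or shield replicate 2 or 3), fgf19 (without 5-somite replicate 1 or 3 or shield replicate 1 or 2) and dnmt3bb.3 (without 5-somite replicate 2 or 3 or any shield replicate) were lost, and eomesb was called without 5-somite replicate 3 (0.40). Apart from the constructions named, the cause of these changes was not tested. Signals near background limit the folds of dim probes, and the number of arrays limits the rest.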
